A study of Mus musculus with 6 samples.

Results

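The motor genes described here are the kinesins, kinesin light chains, cytoplasmic dynein subunits, dynactin subunits and unconventional myosins measured by the array. They were picked by gene symbol alone, among probe sets annotated to exactly 1 gene, and where a gene had several, the one with the highest mean signal over the 6 arrays was kept. This gave 46 genes, covered by 62 probe sets, of the 8251 genes named in the series. The samples are 6 total RNA preparations of mouse hippocampus, numbered 1 to 6 by their titles, from a study of mice overexpressing the neuronal RNA-binding protein HuD. The titles also end in a code, the same for 5 samples and different for sample 2, whose meaning the labels do not give. No label ties a sample to a genotype, strain, age, sex or animal, and none says whether animals were pooled. No groups were formed, and what follows gives levels per sample and differences between single samples, with no test of these differences and no replicate check.

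Molecular motors turn ATP hydrolysis into movement along the cytoskeleton. Most kinesins walk to the plus ends of microtubules, which point away from the cell body in axons, and cytoplasmic dynein with its cofactor dynactin walks to the minus ends. Unconventional myosins move on actin and are known for short-range transport and anchoring, for example in dendritic spines. In neurons these motors carry vesicle precursors, mitochondria, endosomes and RNA granules between the cell body and the synapses.

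The deposited values are signal intensities on a linear scale. For comparison between samples the signals of an array were divided by their median and put on a log2 scale, and a fold is the highest sample over the lowest on that scale. A gene is called expressed where its median over the 6 samples lies above the array median. Array medians ran between 59.9 and 63.3. As a rough check of the tissue, 8 of the 9 measured markers of hippocampal neurons were expressed, Camk2a and Neurod6 among them. Prox1, a transcription factor of dentate granule cells, was not. Of all named genes 58.6% were expressed. All 3 measured markers of thalamus were too, so the count does not tell hippocampus from other brain regions. Ttr, a choroid plexus marker, varied 87.6-fold, with sample 6 highest and sample 1 lowest. Its fold was 28.6 when values under the array median were set to that median.

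Of the 46 motor genes 30 were expressed (65.2%, where 58.6% of all named genes were). None of these 30 had a value under the array median in any sample. The signals of the 16 others, 6 of which are kinesins known for mitosis, are not shown to be above background. Just inside the limit lay Myo9a, with signals of 63.0 to 102, and just outside it lay Kifc3 and Kifc2, microtubule motors with a C-terminal motor domain, with signals of 30.0 to 70.8 and 42.8 to 72.04.

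The motor genes differed between samples about as much as other genes did. The median difference of the 30 expressed motor genes was 1.35-fold (0.43 on the log2 scale), beside 1.32-fold (0.40) for all 4838 expressed genes. A fold above 1.5 was reached by 8 of the 30 (26.7%), beside 23.7% of all expressed genes, and a fold above 2 by 1 (3.33%), beside 4.2%. Neither share stands far from that of the array as a whole. Dctn2 lay just above the 1.5-fold mark at 1.53 and Myo5b just under it at 1.496. Without sample 1 the count above 1.5-fold was 4, without sample 5 it was 5, and without sample 6 none of the 30 exceeded 2-fold. Leaving out a sample can only keep or narrow the range of a probe set. The matching shares of all expressed genes are not given.

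**Figure D1:**
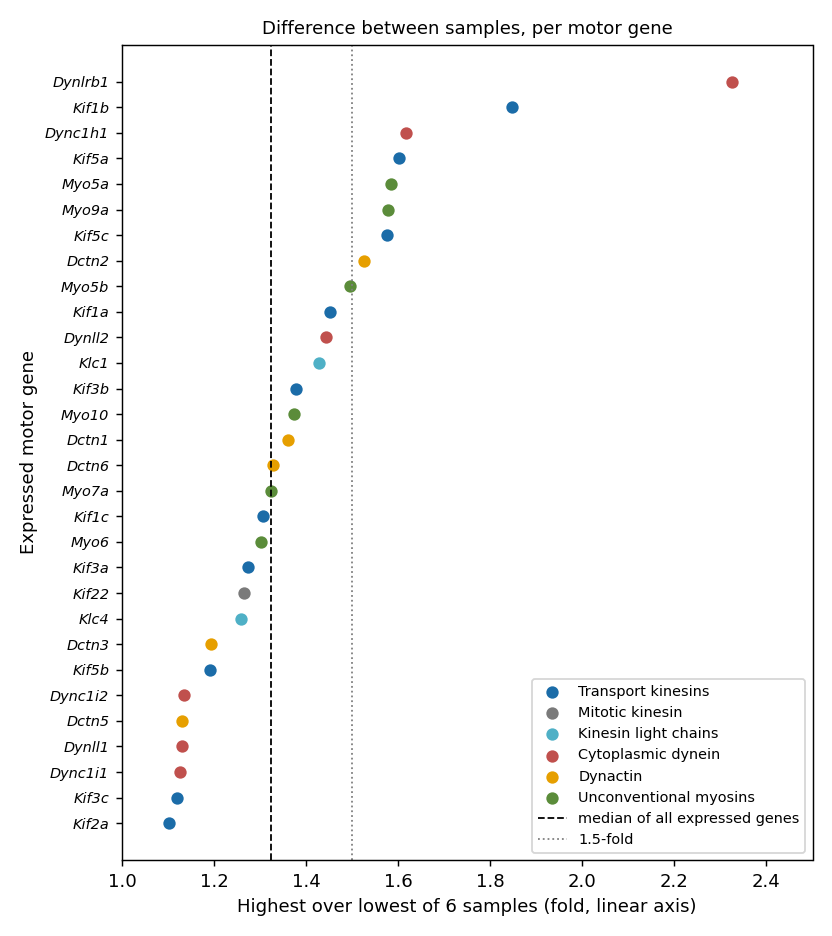
Each point is 1 expressed motor gene, placed by the fold of its highest over its lowest sample (x axis, linear) and coloured by class. The dashed line is the median of all expressed genes (1.32-fold) and the dotted line marks 1.5-fold. Dynlrb1 stands apart at 2.32-fold, and 22 of the 30 genes lie at or under the dotted line.

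Kinesins listed under axonal and dendritic transport made up the largest class, with 10 of 11 measured members expressed. The list also holds Kif2a, which shortens microtubules. Their median difference was 1.34-fold, and 3 of the 10 exceeded 1.5-fold. The widest was Kif1b, a carrier of mitochondria and synaptic vesicle precursors, with signals of 136, 214, 160, 219, 252 and 188 in samples 1 to 6. Sample 5 was the highest and 1.85 times sample 1, the lowest.

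The conventional kinesin heavy chains split. Kif5a, the chain restricted to neurons, had signals of 390, 526, 471, 510, 628 and 427 in samples 1 to 6, a 1.60-fold difference. Kif5c, also enriched in neurons, had 198, 272, 296, 272, 313 and 257, a 1.57-fold difference. For both, as for Kif1b, sample 5 was the highest and sample 1 the lowest. After scaling, sample 3 of Kif5c was nearly level with sample 5, at log2 values of 2.305 and 2.312. Kif5b, the chain found in most cell types, had 385, 360, 311, 391, 351 and 373 and varied 1.19-fold after scaling, with sample 4 highest and sample 3 lowest. Leaving out an end sample always narrows a range. For Kif5c, lowest in sample 1, the log2 range was 0.66 with all samples and 0.28 without sample 1. For Kif1b the same omission left 0.58 of 0.89, and for Kif5a 0.55 of 0.68. For Kif5b the range was 0.15 without sample 3, in place of 0.25. With no further scaling the log2 ranges were 0.33 for Kif5b, 0.69 for Kif5a and 0.66 for Kif5c.

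Kif1a, the main motor of synaptic vesicle precursors, was placed otherwise. Its signals were 336, 474, 436, 337, 401 and 466 in samples 1 to 6, so that samples 1 and 4 lay together under the other four, and the fold was 1.45. Kif3b, a chain of the heterotrimeric kinesin that also drives transport in cilia, had 92.1, 121, 101, 108, 118 and 127, highest in sample 6 and again lowest in sample 1 (1.38-fold). Without sample 1 its log2 range was 0.27 in place of 0.46. Its partner Kif3a had 105, 124, 97.6, 108, 106 and 130, with samples 2 and 6 above the other four (1.27-fold). Kif3c, an alternative partner of Kif3a in neurons, varied 1.12-fold.

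Kif1c, a carrier of vesicles between Golgi and periphery, had signals of 99.95, 111, 94.7, 123, 94.2 and 113 in samples 1 to 6 (1.31-fold, sample 4 over sample 5). Kif2a, which shortens microtubules rather than walking on them, had 206, 209, 185, 199, 207 and 208. At 1.10-fold it was the steadiest of all 30 genes after scaling. With no further scaling its log2 range was 0.18, wider than the 0.13 of Dctn5 and the 0.14 of Dync1i1.

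Over the 10 expressed transport kinesins 4 had their lowest value in sample 1, namely Kif1b, Kif3b, Kif5a and Kif5c, and over all 30 expressed motor genes 8 did (26.7%), beside 21.6% of all expressed genes. Highest in sample 1 were 4 of the 30 (13.3%, beside 17.3% of all expressed genes). That count depended on the scaling: it was 10 in deposited signals without further scaling (beside 21.5% of all expressed genes) and 9 with quantile normalization (beside 21.4%), more than the 8 that were lowest there under each. The median deviation of the 10 kinesins from each gene's own median was -0.19 in sample 1 on the log2 scale, against 0.10, -0.08, -0.01, -0.01 and 0.01 in samples 2 to 6. In sample 1 it was 0.008 for the 30 expressed motor genes and -0.005 for all expressed genes. Not all 10 kinesins were low there: Kif3c was highest in sample 1 and Kif5b lay above its median. Markers of hippocampal neurons had a median deviation of -0.22 in sample 1, beside 0.06, 0.04, 0.02, 0.09 and -0.07 in samples 2 to 6. Their summed level was 144 times the array median in sample 1 and 142 to 160 times in the other samples. They did not move together: of the 8 expressed ones Neurod6, Neurod2 and Nrgn were lowest in sample 1, Tbr1, a transcription factor of excitatory neurons, was highest there (585, the others 372 to 410), and Snap25 and Lct lay above their medians. Interneuron markers, 7 of 7 measured ones expressed, deviated by 0.02 in sample 1 and had a summed level of 68.6 there and of 55.0 to 72.2 in the others. Astrocyte markers, 5 of 5 measured ones expressed, deviated by -0.40 in sample 1 and by 0.00 to 0.05 in the others, and had a summed level of 43.9 in sample 1 and of 47.3 to 50.2 in the others. Myelin (7 of 7 measured ones expressed), thalamus (3 of 3) and choroid plexus markers (2 of 5) had median deviations of -0.28, -0.34 and -2.92 in sample 1. Those of meninges (6 of 6) and mural cells (2 of 5) had 0.24 and 0.31, though Col1a2 of the meninges list was lowest there. Microglia markers (5 of 5) deviated by -0.10 in sample 1. Their summed level was 19.1 there and 20.9 to 21.4 in the others. The 4 controls for the 3' to 5' signal ratio disagreed on sample 1. The ratio was the highest there for beta-actin (1.27, the others 1.11 to 1.24) and Gapdh (0.860, the others 0.793 to 0.840), the lowest for the transferrin receptor (2.54, the others 2.70 to 3.47) and inside the range of the others for pyruvate carboxylase (2.35, the others 1.57 to 3.56). The part of cell makeup and of RNA quality in the low kinesin values was not tested. In bulk tissue fewer cells of a type and less RNA per cell cannot be told apart.

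The kinesin light chains link the conventional heavy chains to their cargo, and both measured members were expressed. Klc1, the light chain enriched in neurons, had signals of 1812, 1481, 1498, 1328, 1276 and 1368 in samples 1 to 6. Sample 1 was thus the highest and 1.43 times sample 5, the lowest. For Kif5a and Kif5c, its partner chains, these end samples were exchanged, though the order between them was not reversed. This holds for the kept probe set: averaged over its 3 probe sets Klc1 had a log2 range of 0.14 in place of 0.51, with sample 1 highest and sample 2 lowest, and 1 of the further probe sets was highest in sample 5. Without sample 1 the range of the kept probe set was 0.31. Klc4, a further light chain of the family, had 182, 185, 146, 178, 154 and 193 (1.26-fold, sample 6 over sample 3).

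The dynein heavy chain, which holds the motor itself, followed the order of Klc1 at its ends. Dync1h1 had signals of 902, 703, 656, 689, 561 and 783 in samples 1 to 6, with sample 1 highest and sample 5 lowest (1.62-fold). Its log2 range was 0.69 with all samples and 0.40 without sample 5. These 5 kept probe sets were picked here for their opposite placings of samples 1 and 5. The placings were the same with no further scaling and with quantile normalization. Array medians were 62.8 in sample 1 and 63.1 in sample 5, so leaving out the scaling could hardly change their order. Averaging probe sets moved the lowest sample of Klc1 to sample 2 and that of Kif5a to sample 6, and the highest samples stayed as they were. Among all expressed genes 17.3% were highest in sample 1 and 12.1% in sample 5, while 21.6% were lowest in sample 1 and 20% in sample 5. These shares cover 1 end each, and the share with both ends so placed is not given. The 3' to 5' ratio was 1.27 in sample 1 and 1.15 in sample 5 for beta-actin, 0.860 and 0.797 for Gapdh and 2.35 and 1.62 for pyruvate carboxylase, and it ran the other way for the transferrin receptor, at 2.54 and 3.02. Their part in these differences was not tested.

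**Figure D2:**
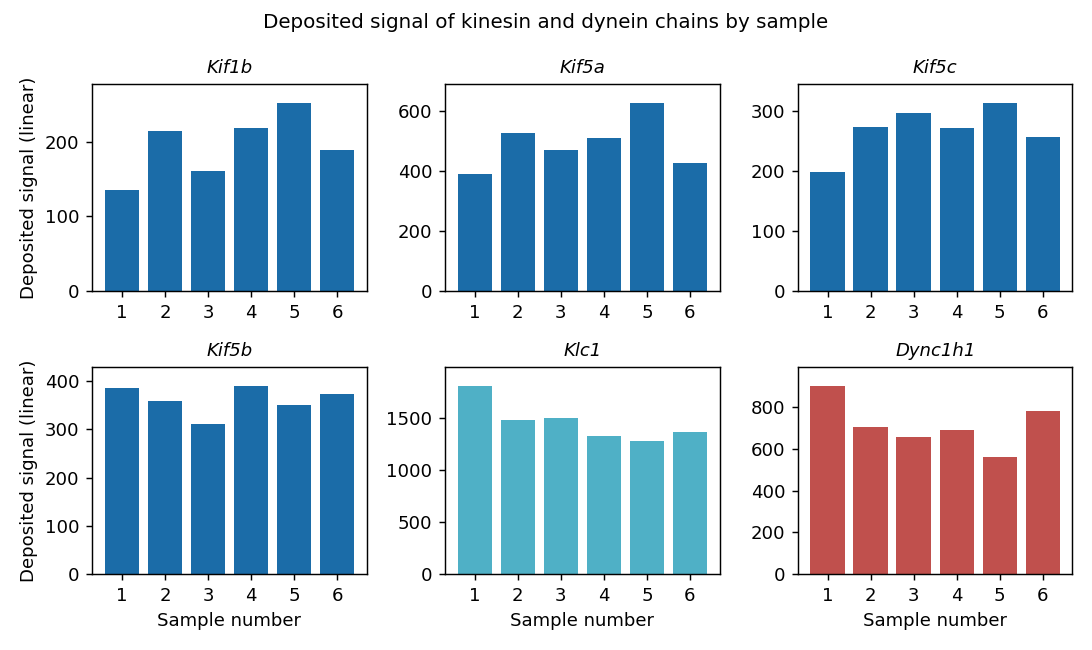
Bars give the deposited signal (linear axis from 0, a separate scale per panel) of Kif1b, Kif5a, Kif5c, Kif5b, Klc1 and Dync1h1 in samples 1 to 6, 1 array each. Kif1b, Kif5a and Kif5c are highest in sample 5 and lowest in sample 1. Klc1 and Dync1h1 are the other way round for the kept probe sets shown. Kif5b runs from 311 in sample 3 to 391 in sample 4.

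The promoters of 4 of these 5 genes are shown because they belong to the pair of opposite patterns. They are Kif1b and Kif5c, highest in sample 5, and Klc1 and Dync1h1, highest in sample 1, each as read by the kept probe set. After scaling Kif5c was nearly as high in sample 3. Kif5a and Myo5b, also highest in sample 5 and lowest in sample 1, had no entry among the promoter windows. Each window runs 5′ to 3′ on the gene's own strand from 250 bases before to 50 bases after an annotated start, as RefSeq gives it on build GRCm38.p6. They lie at chr4:149307684-149307983 (minus strand, the more upstream of 2 entries for Kif1b), chr2:49619036-49619335 (plus strand, Kif5c), chr12:111758618-111758917 (plus strand, Klc1) and chr12:110601145-110601444 (plus strand, Dync1h1). Capitals mark GC boxes (GGGCGG on either strand) and full cAMP response elements (TGACGTCA, the same on both strands).
Kif1b: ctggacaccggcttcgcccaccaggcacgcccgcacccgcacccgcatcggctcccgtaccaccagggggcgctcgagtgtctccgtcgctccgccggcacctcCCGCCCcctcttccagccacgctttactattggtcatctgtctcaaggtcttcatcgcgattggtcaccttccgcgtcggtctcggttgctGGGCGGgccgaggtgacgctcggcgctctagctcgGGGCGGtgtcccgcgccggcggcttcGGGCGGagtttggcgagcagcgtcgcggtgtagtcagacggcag
Kif5c: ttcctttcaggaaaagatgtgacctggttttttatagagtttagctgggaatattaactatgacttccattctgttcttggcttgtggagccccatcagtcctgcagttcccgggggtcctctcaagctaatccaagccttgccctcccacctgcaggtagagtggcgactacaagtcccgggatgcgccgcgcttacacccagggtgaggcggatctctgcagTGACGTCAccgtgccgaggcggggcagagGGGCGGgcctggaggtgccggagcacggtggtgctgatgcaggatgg
Klc1: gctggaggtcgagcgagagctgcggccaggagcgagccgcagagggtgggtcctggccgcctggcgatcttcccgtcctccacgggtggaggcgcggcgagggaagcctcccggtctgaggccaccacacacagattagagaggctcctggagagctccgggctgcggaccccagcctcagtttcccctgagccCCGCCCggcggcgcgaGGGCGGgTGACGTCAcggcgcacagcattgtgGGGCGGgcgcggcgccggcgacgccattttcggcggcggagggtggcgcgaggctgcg
Dync1h1: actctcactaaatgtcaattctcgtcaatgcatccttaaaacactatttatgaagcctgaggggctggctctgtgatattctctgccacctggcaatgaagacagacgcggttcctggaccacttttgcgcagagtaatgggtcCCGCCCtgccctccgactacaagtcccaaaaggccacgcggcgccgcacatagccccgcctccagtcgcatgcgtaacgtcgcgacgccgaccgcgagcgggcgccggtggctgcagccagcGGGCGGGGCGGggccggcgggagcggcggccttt
GC boxes numbered 4 in the Kif1b window, 1 in Kif5c, 3 in Klc1 and 3 in Dync1h1, of which 2 share a base, and 35.7% of the 32851 promoter windows in the table hold at least 1. The cAMP response element occurred once in Kif5c and once in Klc1, next to but not overlapping a GC box in Klc1, and 1.79% of all windows hold it. Among the windows shown it thus appears once in each pattern, with Kif5a and Myo5b not covered. The matches describe letters in these windows only. The G and C content was 69.7% for Kif1b, 58% for Kif5c, 73.7% for Klc1 and 62.3% for Dync1h1, beside a median of 52.7% over all windows.

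The remaining dynein subunits fell into steady and variable ones. The intermediate chains, which bind dynactin, were steady: Dync1i1, the form typical of neurons, had signals of 1046, 999, 1013, 951, 1004 and 953 in samples 1 to 6, and Dync1i2, the widespread form, had 212, 212, 182, 210, 198 and 192. Both varied 1.13-fold. Among the light chains, Dynll1, a small subunit that also joins many complexes outside dynein, varied 1.13-fold, with signals of 3946, 3863, 3550, 3677, 3511 and 3558. Its close relative Dynll2, which also sits in myosin V, varied 1.44-fold, with 1773, 2501, 1936, 2351, 2366 and 1969. Samples 2, 4 and 5 of Dynll2 were the high ones and sample 1 the lowest. The names of the probe sets that read Dync1i1 and Dynll1 mark shared or less specific probes.

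Dynlrb1, the roadblock light chain, had the largest difference of the 30 expressed motor genes, 2.32-fold. Its signals were 585, 704, 553, 947, 864 and 405 in samples 1 to 6, with sample 4 highest and sample 6 lowest. Of all expressed genes 97.9% had a smaller difference. Its further probe set, designed from the same sequence record, ran otherwise: it was highest in sample 1 and lowest in sample 4, 1.95-fold apart, with log2 values of 1.73, 1.08, 1.41, 0.76, 0.99 and 1.23. The names of both probe sets mark less specific probes, and their mean had a log2 range of 0.51 in place of 1.22. Without sample 6 the range of the kept probe set was 0.70. The measured difference of Dynlrb1 therefore rests on which probe set is read.

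Dynactin, the cofactor that lets dynein run far and hold cargo, was expressed in all 5 measured subunits. After scaling all 5 were highest in sample 3, as were 31.1% of all expressed genes. Of all 30 expressed motor genes 8 were highest in sample 3 after scaling, 4 with no further scaling (beside 19.1% of all expressed genes) and 4 with quantile normalization (beside 19.4%). In deposited signals without further scaling, and with quantile normalization, Dctn1, Dctn2 and Dctn3 remained highest there, and Dctn5 and Dctn6 were highest in sample 1. Dctn1, the large subunit that binds dynein and microtubules, had signals of 1056, 1036, 1206, 936, 1039 and 1007 in samples 1 to 6 (1.36-fold, sample 3 over sample 4). Its log2 range was 0.45 with sample 3 and 0.19 without it.

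Dctn2, known as dynamitin, the subunit that holds the dynactin shoulder together, had 339, 302, 348, 303, 346 and 239 and was lowest in sample 6 (1.53-fold). Without sample 6 its log2 range was 0.28 in place of 0.61, and the mean of its probe sets had 0.37. Its further probe set did not show that low value: it was lowest in sample 5 and differed only 1.22-fold. Dctn3, another shoulder subunit, had 870, 950, 991, 961, 923 and 874 (1.19-fold, with a log2 range of 0.16 without sample 3 in place of 0.26). The pointed end of the complex, which helps choose cargo, holds Dctn5 and Dctn6. Dctn5 had 544, 496, 538, 505, 517 and 499 and was among the steadiest genes (1.13-fold). Dctn6 had 402, 390, 400, 318, 334 and 381, with samples 4 and 5 the low ones (1.33-fold). In sample 3 the transferrin receptor and pyruvate carboxylase controls had their highest 3' to 5' ratios (3.47 and 3.56, the other samples 2.54 to 3.02 and 1.57 to 2.61). The ratios of beta-actin and Gapdh there, 1.21 and 0.820, lay inside the range of the other samples. Their part in the dynactin values was not tested.

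**Figure D3:**
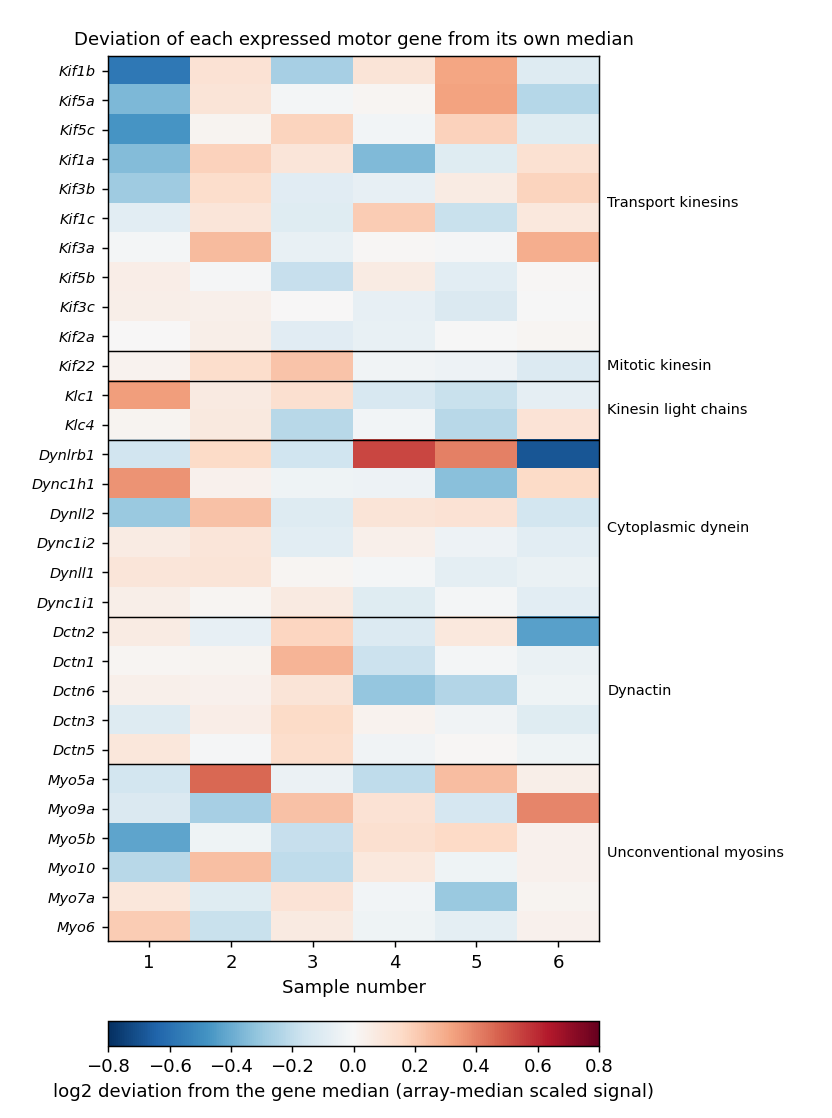
Colour gives the log2 deviation of each of the 30 expressed motor genes (rows, by class) from its own median over samples 1 to 6 (columns), red above and blue below. Kif1b, Kif5a, Kif5c and Myo5b are blue in sample 1, Klc1 and Dync1h1 red there, the 5 dynactin subunits light red in sample 3, and Dynlrb1 red in samples 4 and 5 and blue in sample 6.

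Unconventional myosins were expressed in 6 of 10 measured members, with a median difference of 1.43-fold. The class V motors, which carry organelles and receptors into spines, differed from each other. Myo5a had signals of 77.6, 115, 79.4, 74.99, 102 and 88.6 in samples 1 to 6, highest in sample 2 and lowest in sample 4 (1.58-fold). Its further probe set was at the floor in all 6 samples, so that averaging both gives a log2 range of 0.33 in place of 0.66. Myo5b, a partner of Rab11 on recycling endosomes, had 339, 433, 382, 501, 509 and 466, highest in sample 5 and lowest in sample 1, as for Kif1b, Kif5a and Kif5c. Without sample 1 its log2 range was 0.34 in place of 0.58. The further probe set of Myo5b was highest in sample 2 and lowest in sample 3.

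Myo9a had 71.7, 63.0, 87.1, 84.7, 71.1 and 102 (1.58-fold, sample 6 over sample 2). Myo10, a motor of filopodia, had 90.6, 122, 87.6, 113, 103 and 108. It was highest in sample 2, with samples 1 and 3 the low ones (1.37-fold); after scaling sample 1 was the lowest, in deposited signals sample 3. Without sample 2 its log2 range was 0.30 in place of 0.46. Myo6, the myosin that walks to the minus end and serves endocytosis, had 204, 153, 177, 174, 169 and 181 (1.30-fold, sample 1 over sample 2). Its 2 further probe sets varied 1.18-fold and 1.20-fold and had neither their highest nor their lowest sample in common with it. The log2 range of Myo6 was 0.38, but 0.25 without sample 1 and 0.16 for the mean of its probe sets. Myo7a, known for its role in the hair cells of the ear, had 146, 125, 141, 135, 112 and 139, with sample 5 the lowest (1.32-fold). Without sample 5 its log2 range was 0.21 in place of 0.40.

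The genes that were not expressed were Kif16b among the transport kinesins, Kif9, a kinesin known from motile cilia, both Kifc2 and Kifc3, the dynein light chains Dynlt1b and Dynlt3, and the class I myosins Myo1c, Myo1d, Myo1e and Myo1f, the last known from immune cells. Of 7 kinesins known for their work in mitosis, Kif11, Kif20a, Kif23, Kif2c, Kif4 and Kifc1 were not expressed either. Kif22, a kinesin that binds chromosomes, was the exception, at 156, 164, 170, 150, 149 and 141, read by a probe set whose name marks less specific probes. Of 11 measured proliferation genes 5 were expressed, namely Ccna2, Ccnb2, Mcm5, Pcna and Plk1, where 58.6% of all named genes were. Mki67, Top2a and Cdk1 were among those that were not.

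Further probe sets existed for 11 of the 30 expressed motor genes. Of the 13 such probe sets 8, for 6 genes, lay above the array median. Only 1 of the 8, that of Dynll2, had both its highest and its lowest sample in common with the kept probe set, and the other 7 had neither. For Klc1 the 2 further probe sets varied 1.15-fold and 1.18-fold and were highest in samples 5 and 4, where the kept one was highest in sample 1. Those of Kif1b and Kif5a, dimmer and mostly under the array median, were highest in sample 5 like the kept ones, with their lowest values in samples 2 and 3. The order of samples given above thus belongs to single probe sets. For 5 expressed motor genes the name of the kept probe set marks shared or less specific probes. They are Kif5a, Kif22, Dync1i1, Dynll1 and Dynlrb1.

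**Figure D4:**
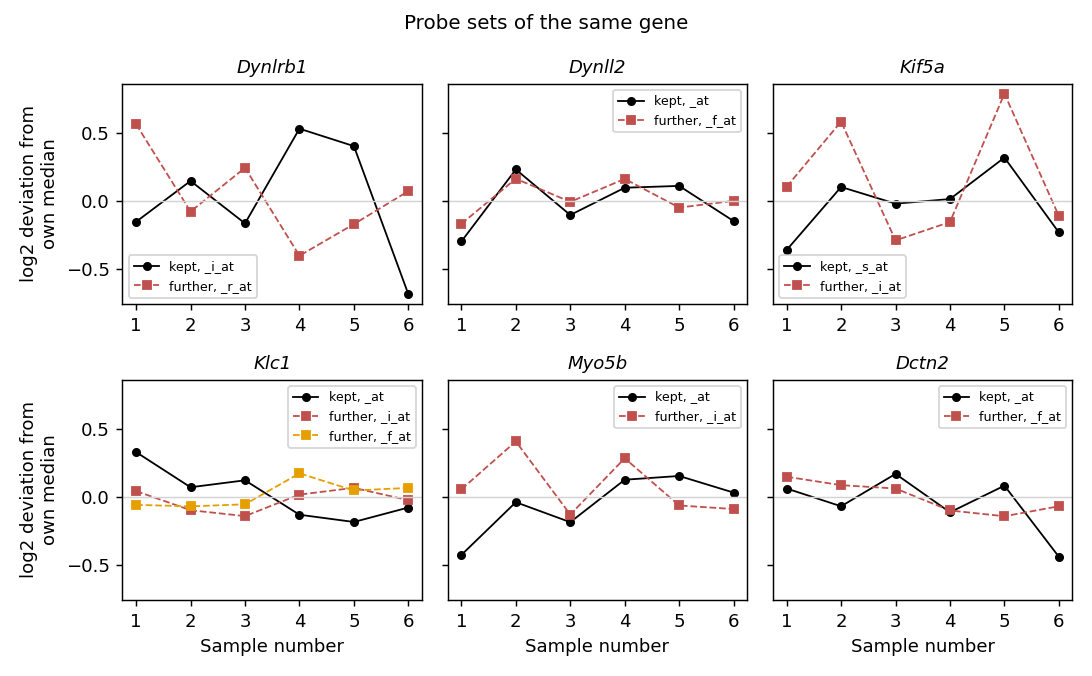
Lines give the log2 deviation of each probe set from its own median in samples 1 to 6, for 6 genes with more than 1 probe set. Black circles are the kept probe set and coloured squares the further ones, named by their suffix. The lines run together for Dynll2 and apart for Dynlrb1, Klc1 and Dctn2.

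Genes that work with the motors are given beside the expressed motor genes, whose median difference was 1.35-fold, with 26.7% above 1.5-fold. All expressed genes had a median of 1.32-fold, with 23.7% above 1.5-fold. Smaller shares of the microtubule motor adaptors and of the tubulins exceeded 1.5-fold. Of 16 measured adaptors and regulators of microtubule motors 14 were expressed, with a median difference of 1.30-fold, and Numa1, an organiser of spindle poles, alone exceeded 1.5-fold (1.72-fold, sample 6 over sample 3). Kifap3, the cargo subunit of the Kif3 motor, was highest in sample 3 after scaling and in sample 1 in deposited signals, at 966 and 1006. Pafah1b1, the dynein regulator known as Lis1, ran from 993 to 1090. Tubulins, the tracks of these motors, had 10 of 11 measured members expressed, a median difference of 1.29-fold and none above 1.5-fold. Of 12 measured chains and regulators of conventional myosin 8 were expressed, with a median of 1.37-fold. Myl9, a light chain of smooth muscle and non-muscle myosin, differed most, at 2.32-fold, which came to 1.56-fold when its value in sample 4, dimmer than the array median, was set to that median. Of 5 measured adaptors of unconventional myosins 4 were expressed, and Tom1, a partner of Myo6 on endosomes, differed most (1.53-fold). Of 4 measured genes of axonemal dynein and motile cilia only Foxj1, the regulator of ciliated cells, was expressed (1.45-fold).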

How the data were processed

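Total RNA of 6 mouse hippocampus samples was measured on 1 oligonucleotide array each, with 12488 probe sets, 66 of them controls. The deposited table gives linear signal intensities, all above 0 and with 0 missing values, and no array equals another. How the authors scanned, summarised and scaled the arrays is not stated in the labels, the background is unknown, and precision is limited by the number of arrays. Genes were named from the platform annotation, and all 46 motor gene identifiers matched the RefSeq table (GRCm38.p6) with 0 symbols changed.

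With Python 3.11.15, numpy 2.4.6 and pandas 2.3.3, array signals were divided by the array's median (controls left out), quotients under 0.2 were raised to 0.2, and the log2 was used. Folds were checked on simulated arrays. No sample has a group, so no test between groups was run; Dixon's criterion for a distant sample was applied to expressed motor genes. Samples tied at the floor counted as neither highest nor lowest. Motor genes and lists were chosen with earlier results of these data known. Signals in all samples were given for the 20 motor genes with the largest difference, the steadiest of each class and the Kif5, dynein, dynactin and myosin V and VI genes, and the widest gene of each related list was named. Alternatives were other scalings, floors, filters, probe set rules and leaving out each sample.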

Additional observations from a re-analysis of the deposited data

How the results depend on the processing

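Each result was recomputed with no further scaling, quantile normalization, other floors and filters, other probe set rules and without each sample in turn. With no filter on low values all 46 motor genes were counted, of which 5 exceeded 2-fold and 21 exceeded 1.5-fold. They include the 16 genes called not expressed, whose signals are not shown to be above background. The counts above 2-fold and 1.5-fold in this section stand without the shares over all genes. Averaging the probe sets of a gene, 0 genes exceeded 2-fold and 5 exceeded 1.5-fold, and with probe sets of plain names only 0 exceeded 2-fold, since Dynlrb1 then has no probe set. Leaving out 1 sample at a time gave 30 expressed genes throughout, 0 to 1 above 2-fold, 4 to 8 above 1.5-fold, a median log2 range of 0.35 to 0.41, and 8 to 10 genes lowest in sample 1, a count that has no value without that sample. The ranges of named genes moved by over 1 SD of the gene's 6 values in 19 of 401 recomputations, among them Dctn2 without samples 3 or 5 (0.29 and 0.25 in place of 0.61), where the other probe set had the higher mean. With no further scaling and with quantile normalization 4 motor genes were highest in sample 3, in place of 8, and 10 and 9 in sample 1, in place of 4. No paired analysis was possible because the samples have no groups. Detection calls were not used here, so signals near the array median are the least certain.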

Other observations

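A pair of probe sets annotated to several dynein light chain genes of the Dynlt1 cluster was left out above. The one with 2 symbols had signals of 1115, 1070, 868, 1181, 975 and 992 in samples 1 to 6, and the one with 4 symbols had 28.0, 45.5, 39.0, 36.5, 47.8 and 46.1, under the array median in all samples. Among the 30 expressed motor genes no sample stood far enough from the other 5 to pass Dixon's criterion for 6 values.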
